A study of Mus musculus with 3 samples.

Results

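Open chromatin in the mouse ECOMG myeloid progenitor line was compared between a library taken before dTAG and a library taken after 6 h with dTAG. All regions of the 6 h list were set against all regions of the 0 h list on chromosomes 1 to 19 and X, and 2 regions counted as shared when they overlapped by at least 1 bp. This gave 182187 regions at 0 h and 178007 at 6 h, together 360194 of the 505332 regions in the series. Both libraries carried the genotype FKBP12F36V_NIPBL, in which NIPBL is fused to a degradation tag, and both cultures grew with GM-CSF and β-estradiol. The 0 h library had no dTAG and the 6 h library had dTAG for 6 h; a further library at 72 h with dTAG and estradiol was used only to look up the same positions. ATAC-seq, in which a transposase inserts adapters into accessible DNA, was run on 50000 cells per library. Each time had 1 library, so nothing below has a replicate check or a test across conditions, and dTAG, time in culture and library cannot be told apart. Whether the line is 1 clone is not given in the sources used here.

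NIPBL loads the cohesin ring onto DNA, where the ring reels in chromatin and forms loops until it meets a barrier such as bound CTCF. WAPL releases cohesin again, and loops bring distal regulatory elements near gene starts. dTAG is a small molecule that joins a tagged protein to a ubiquitin ligase, which leads to its breakdown. In myeloid cells, accessible sites at enhancers are mostly set by factors such as PU.1, C/EBP, RUNX and AP-1, while many gene starts carry CpG-rich promoters that are open in most cells.

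Height is the authors' fold for a peak, the signal at its summit over the caller's background. It belongs to the peak in its own list, so heights at 2 times were compared by rank within sets of equal size and the folds are given side by side. Fold and −log10 q put the regions of a list in the same order, with a Spearman rho of 1 in each list. Genes were represented by the tallest region within 1 kb of a start, using the start in RefSeq promoters (GRCm38.p6, the assembly of mm10) for 17274 of 21631 protein-coding genes and either gene end for the other 4357.

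The promoters that carry the gene-level results are printed first. Each is the 250 bases before the RefSeq start (GRCm38.p6), written 5′ to 3′ on the strand of the gene. Capitals mark matches, on either strand, to 9 short motifs: the GC box GGGCGG, the CCAAT box CCAAT, the E-box CACGTG, the TATA box TATAAA, the PU.1 motif GAGGAAGT, the C/EBP motif TTGCNNAA, the AP-1 motif TGANTCA, the RUNX motif TGTGGT and the CTCF core (CCA, any 2 bases, AG, any 2 bases, GGC). A match is a description of the letters and not a bound site. The first set holds 4 stefin A genes of chromosome 16, whose start regions all stood higher at 6 h.
Stfa2 (chr16:36408364-36408613, minus strand): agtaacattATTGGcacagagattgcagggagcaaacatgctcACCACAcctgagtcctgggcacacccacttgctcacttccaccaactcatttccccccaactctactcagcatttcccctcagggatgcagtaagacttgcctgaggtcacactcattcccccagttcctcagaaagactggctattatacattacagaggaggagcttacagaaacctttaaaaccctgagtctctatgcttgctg
Stfa2l1 (chr16:36156561-36156810, plus strand): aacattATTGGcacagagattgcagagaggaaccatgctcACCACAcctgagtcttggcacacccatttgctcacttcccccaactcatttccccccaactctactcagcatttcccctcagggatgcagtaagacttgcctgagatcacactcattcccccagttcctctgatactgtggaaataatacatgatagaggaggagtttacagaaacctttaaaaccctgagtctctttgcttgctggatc
Stfa3 (chr16:36455393-36455642, minus strand): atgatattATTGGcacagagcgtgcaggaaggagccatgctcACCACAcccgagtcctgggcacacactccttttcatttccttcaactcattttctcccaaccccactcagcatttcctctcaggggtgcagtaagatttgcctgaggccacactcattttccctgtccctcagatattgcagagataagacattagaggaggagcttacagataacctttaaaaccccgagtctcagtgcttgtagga
Cstdc4 (chr16:36183962-36184211, plus strand): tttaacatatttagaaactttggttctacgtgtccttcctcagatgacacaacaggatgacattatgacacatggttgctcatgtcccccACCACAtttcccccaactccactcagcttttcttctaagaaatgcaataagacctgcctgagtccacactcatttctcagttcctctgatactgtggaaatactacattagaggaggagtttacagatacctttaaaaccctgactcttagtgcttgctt

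The RUNX letters began 207, 210 and 208 bases before the starts of Stfa2, Stfa2l1 and Stfa3, and 160 bases before that of Cstdc4. A CCAAT box began 241, 244 and 242 bases before the first 3 starts. The second set holds Lif, Mmp8, Irf7 and Ebpl, whose start regions ranked higher at 6 h than at 0 h.
Lif (chr11:4257318-4257567, plus strand): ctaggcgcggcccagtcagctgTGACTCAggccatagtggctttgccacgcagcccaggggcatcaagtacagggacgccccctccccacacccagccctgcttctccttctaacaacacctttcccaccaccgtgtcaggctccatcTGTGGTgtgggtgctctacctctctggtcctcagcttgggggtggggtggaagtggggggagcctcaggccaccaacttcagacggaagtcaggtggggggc
Mmp8 (chr9:7558179-7558428, plus strand): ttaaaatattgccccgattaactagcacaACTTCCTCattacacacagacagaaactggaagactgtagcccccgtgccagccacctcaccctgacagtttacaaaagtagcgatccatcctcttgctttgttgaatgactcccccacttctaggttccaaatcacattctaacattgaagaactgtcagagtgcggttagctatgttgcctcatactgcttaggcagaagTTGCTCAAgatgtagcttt
Irf7 (chr7:141266425-141266674, minus strand): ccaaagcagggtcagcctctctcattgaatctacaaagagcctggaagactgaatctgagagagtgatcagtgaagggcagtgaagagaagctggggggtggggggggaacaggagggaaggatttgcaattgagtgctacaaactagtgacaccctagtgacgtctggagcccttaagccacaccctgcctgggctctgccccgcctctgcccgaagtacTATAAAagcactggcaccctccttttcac
Ebpl (chr14:61360446-61360695, minus strand): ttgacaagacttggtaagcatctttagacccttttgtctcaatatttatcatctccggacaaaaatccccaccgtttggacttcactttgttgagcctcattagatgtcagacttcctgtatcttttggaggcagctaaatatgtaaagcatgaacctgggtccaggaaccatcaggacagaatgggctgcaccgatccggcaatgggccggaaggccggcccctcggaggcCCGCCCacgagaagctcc

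Lif carried an AP-1 match 228 bases and a RUNX match 102 bases before its start. Mmp8 carried a PU.1 match at 221 bases and a C/EBP match at 19 bases. Irf7 had a TATA box 29 bases before the start and Ebpl a GC box at 18 bases. The third set holds Padi4 and Itgax, which had a start region at 6 h and none at 0 h.
Padi4 (chr4:140774204-140774453, minus strand): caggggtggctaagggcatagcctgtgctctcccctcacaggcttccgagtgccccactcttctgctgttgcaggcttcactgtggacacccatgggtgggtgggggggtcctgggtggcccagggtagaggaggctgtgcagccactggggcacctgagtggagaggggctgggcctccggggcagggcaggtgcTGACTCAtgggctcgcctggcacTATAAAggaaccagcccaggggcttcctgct
Itgax (chr7:128129300-128129549, plus strand): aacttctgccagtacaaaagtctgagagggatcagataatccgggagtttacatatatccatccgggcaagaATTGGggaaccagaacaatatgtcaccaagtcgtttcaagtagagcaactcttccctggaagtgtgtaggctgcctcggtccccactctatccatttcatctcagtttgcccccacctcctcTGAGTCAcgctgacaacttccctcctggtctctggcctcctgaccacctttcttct

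Both carried an AP-1 match close to the start, 54 bases before it in Padi4 and 56 bases before it in Itgax. AP-1 letters were in 13.1% of the 388 promoters with a region at 6 h alone, so these examples do not stand for that class. Both start regions were close to the lowest fold of the 6 h list, 3.01. The last set holds Dusp2 and Pelp1, whose start regions ranked lower at 6 h. Each held 3 GC boxes and 1 E-box.
Dusp2 (chr2:127335909-127336158, plus strand): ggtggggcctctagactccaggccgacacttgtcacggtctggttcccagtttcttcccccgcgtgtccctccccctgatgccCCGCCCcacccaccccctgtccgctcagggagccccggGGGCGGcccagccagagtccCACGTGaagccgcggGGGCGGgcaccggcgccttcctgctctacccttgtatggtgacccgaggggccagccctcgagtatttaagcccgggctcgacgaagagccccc
Pelp1 (chr11:70410032-70410281, minus strand): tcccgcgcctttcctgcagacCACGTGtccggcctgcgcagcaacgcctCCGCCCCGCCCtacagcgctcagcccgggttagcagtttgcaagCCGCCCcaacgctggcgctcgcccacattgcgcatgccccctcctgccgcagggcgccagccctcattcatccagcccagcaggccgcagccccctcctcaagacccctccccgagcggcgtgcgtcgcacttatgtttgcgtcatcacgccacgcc

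The lists were alike in size and shape. The regions covered 34.1 Mb at 0 h and 34.2 Mb at 6 h, their median length was 130 and 135 bp, and their median fold was 6.80 and 7.54. The lowest fold was 3.02 and 3.01, and the shortest region 55 and 56 bp, so a locus without a region may still hold weaker signal. The labelled cell type was checked against the starts of marker genes. For comparison, 13591 of all 21631 protein-coding genes had a start region at 0 h and 13499 at 6 h. Of 19 progenitor and stem genes, 15 had a start region at 0 h and 14 at 6 h, among them Flt3 (fold 97.5 and 107), Cd34 (45.4 and 49.7) and Kit (18.9 and 18.1), while Mpo, the granule peroxidase, had none at either time. Of 13 monocyte and macrophage genes, 12 had a start region at both times. Of 23 mature neutrophil genes 18 and then 20 had one, and of 11 primary granule genes 9 and then 10. The check therefore does not separate progenitors from more mature myeloid cells. Of 17 lymphoid genes 7 and then 8 had one, of 16 erythroid and megakaryocyte genes 6 and then 7, and of 15 genes of other tissues 7 and then 6. Among these, the erythroid gene Epor (37.0 and 47.5), the lymphoid factors Ebf1 (22.7 and 36.9) and Gata3 (138 and 152, with the summit beyond 1 kb), and the collagen gene Col1a1 (30.2 and 24.1) had a region at both times. Gata1 (erythroid), Cd3e (T cells) and Alb (liver) had none at either time.

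Most regions were found at both times, and those that were not were low and narrow. Of the 0 h regions, 76.6% (Clopper-Pearson 95% interval 76.4 to 76.8, counting error only, as for all intervals here) overlapped a 6 h region, and 78.2% (78.1 to 78.4) of the 6 h regions overlapped a 0 h region. With each list cut into 4 equal classes by height, the lowest class was shared in 38.4% of cases from the 0 h side and 42.0% from the 6 h side. The next class reached 71.1% and 73.8%, the one above 96.8% and 97.2%, and the tallest 99.96% and 99.95%. Length gave the same order: regions under 80 bp were shared in 38.3% and 40.6% of cases, and regions of at least 300 bp in 99.9% in both directions. The curves of shared regions against height ran close together from either list.

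**Figure D1:**
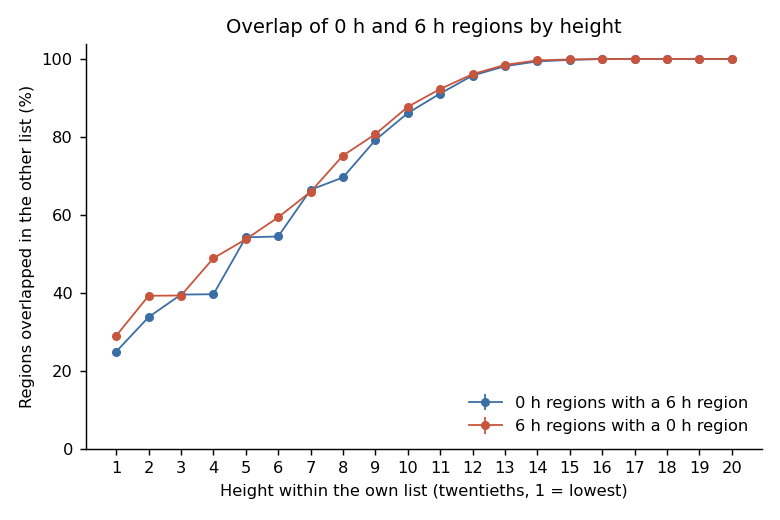
Share of regions overlapped in the other list (y axis, percent) by height within the own list (x axis, 20 equal classes from lowest to highest), for 0 h regions (blue) and 6 h regions (red); bars are Clopper-Pearson 95% intervals. Both curves climb from below 30% in the lowest class to above 99% in the tallest classes.

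Strong regions are those at or above the median −log10 q of their list, which was 7.82 at 0 h and 9.25 at 6 h. Regions tied at the median are included, so the class held 98469 of 182187 regions at 0 h and 92787 of 178007 at 6 h, more than the upper 50% of either list. Of 98469 strong 0 h regions, 2445 had no 6 h region of any height, a background of 2.48% that serves as the share lost. Of 92787 strong 6 h regions, 1585 had no 0 h region, a share gained of 1.71%. The unmatched strong regions were close to the cutoff: 93.9% of the lost and 89.1% of the gained ones had a fold under 10, with medians of 7.56 and 8.29. They were also short, with medians of 102 and 116 bp, against 193 and 202 bp for strong regions with a partner. In 29.2% and 33.2% of cases a region of the other list lay within 500 bp.

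Which direction was larger depended on the height required. Because the cutoff was lower at 0 h, the 0 h list admitted weaker regions. At a −log10 q of at least 10 in either list, 0.837% of the 0 h regions and 1.04% of the 6 h regions were unmatched. At a fold of at least 10, a class chosen after the values were seen, the counts were 148 of 66623 (0.222%) and 172 of 69486 (0.248%). At a fold of at least 20 they were 15 of 36524 and 18 of 38933. Almost no tall region was therefore present at one time alone, and the lists do not show a net loss of tall regions at 6 h.

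The tallest unmatched regions were very narrow, with their summit at the edge. At 0 h these were chr19:47925970-47926056 near Itprip with a fold of 955, chrX:73659215-73659277 in Pnck with 669, chr10:67807823-67807924 with 172, chr8:25200156-25200257 in Tacc1 with 139 and chr2:27476590-27476663 in Brd3 with 110. At 6 h they were chr19:40723647-40723748 in Entpd1 with a fold of 1006, chr11:4121898-4121960 near Sec14l2 with 777, chr5:144884719-144884797 in Smurf1 with 461, chr13:90210538-90210604 with 175 and chr9:92265981-92266111 in Plscr1 with 118. All but the Plscr1 region, which was 131 bp long, were under 110 bp, and their summits lay 4 to 9 bp from an edge, against 26 bp in Plscr1. At a fold of at least 50, 7 of 36 regions under 110 bp (19.4%) were unmatched at 0 h and 6 of 40 at 6 h. Among regions of at least 150 bp and the same height, 0 of 12808 and 1 of 14876 were unmatched, where 0 of 12808 allows a share of up to 0.0234% (3 counts of the total). How such narrow stacks arose was not tested.

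Longer unmatched regions were fewer and lower. Of 0 h regions of at least 150 bp and a fold of at least 10, 29 of 56091 had no 6 h region, led by one 126 bp from a start of Arap2, a GTPase-activating protein (chr5:62765921-62766096, fold 44.6). A region was again listed there at 72 h, with a fold of 50.7. The next at 0 h, near Sec63, Olfr1410, Sirpa and Rere, had folds of 13.6 to 14.4. At 6 h, 38 of 58799 had no 0 h region, led by chr12:40448159-40448328 in Dock4, an activator of Rac (fold 110), and by chr1:91801322-91801595 at the start of Twist2, a transcription factor of mesenchymal cells (fold 37.7). Both had the summit within 11 bp of an edge and no region at 72 h. The region near Bcl10, a signalling adaptor (fold 34.7), was listed at 72 h with a fold of 11.7. These longer regions were picked out after the lists had been seen.

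Unmatched regions were spread over the genome. Strong 0 h regions went unmatched in 1.37% of cases within 1 kb of a gene start and in 4.75% beyond 200 kb, and strong 6 h regions in 0.721% and 2.43%. Regions near starts are taller, so the same was read among regions with a fold of 7 to 10: at 0 h, 4.24% were unmatched near starts and 6.61% beyond 200 kb, and at 6 h 4.43% and 5.91%, with a higher share of 6.67% between these classes. By chromosome, the share of strong 0 h regions lost ran from 1.96% on chromosome 11 to 3.30% on X. Over 0 h regions of any height, chromosome 15 stood apart with 27.4% unmatched (26.6 to 28.3). The other chromosomes ran from 21.6% on X to 24.3% on chromosome 1. Among strong 0 h regions chromosome 15 had 2.58%, and from the 6 h side 23.4% of all its regions were unmatched, beside 21.8% genome-wide. In bins of 1 Mb the most lost regions in 1 bin were 9, on chromosome 11 from 69 to 70 Mb (9 of 216 strong regions) and on chromosome 5 from 115 to 116 Mb (9 of 155). The most gained were 7, on chromosome 17 from 35 to 36 Mb (7 of 209). Among the 8 bins with the most lost or gained regions, the bin on chromosome 3 from 3 to 4 Mb had the highest share of its strong regions unmatched, with 8 of 47 lost.

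The 72 h list was used to look up the regions seen at only 1 of the first 2 times. Of the 2445 strong regions lost at 6 h, 27.9% (26.1 to 29.7) overlapped a 72 h region. Of the 1585 gained at 6 h, 55.0% (52.5 to 57.5) did. The classes differ in height, but within folds of 7 to 10 the shares were 29.4% (26.8 to 32.1) and 54.2% (51.6 to 56.8). At a fold of at least 10 they were 29.1% and 61.6%, and at that height with at least 150 bp 10 of 29 (34.5%) and 31 of 38 (81.6%). Under 110 bp the values were 28.6% and 42.4%, with overlapping intervals. Strong regions shared by 0 h and 6 h overlapped a 72 h region in 85.7% and 88.6% of cases. Regions that appeared at 6 h were thus listed at 72 h more often than regions that disappeared, and the intervals cover counting within single libraries only.

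**Figure D2:**
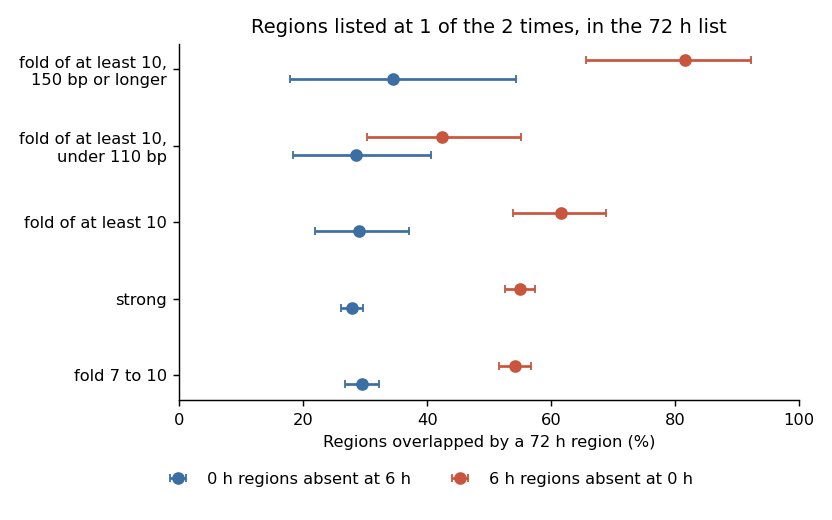
Share of regions overlapped by a 72 h region (x axis, percent) for 0 h regions absent at 6 h (blue) and 6 h regions absent at 0 h (red), by class of height and length (y axis); bars are Clopper-Pearson 95% intervals. The red points lie to the right of the blue ones in all 5 classes, from 42.4% against 28.6% for regions under 110 bp, where the intervals overlap, to 81.6% against 34.5% for tall regions of at least 150 bp.

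Shared regions had their summits in nearly the same place at both times. In 128401 cases 1 region of each list overlapped 1 of the other. The 2 summits lay a median of 18 bp apart, at most 50 bp apart in 88.5% of pairs and at most 100 bp apart in 98.0%. Median length was 153 bp at 0 h and 156 bp at 6 h, and 51.6% of pairs were longer at 6 h. A further 3672 regions of 0 h were met by several 6 h regions and 3915 regions of 6 h by several 0 h regions, so splitting and joining were about equally frequent. Across pairs the Spearman rho of height was 0.881, a description over regions of 1 library each, which are not replicates.

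**Figure D3:**
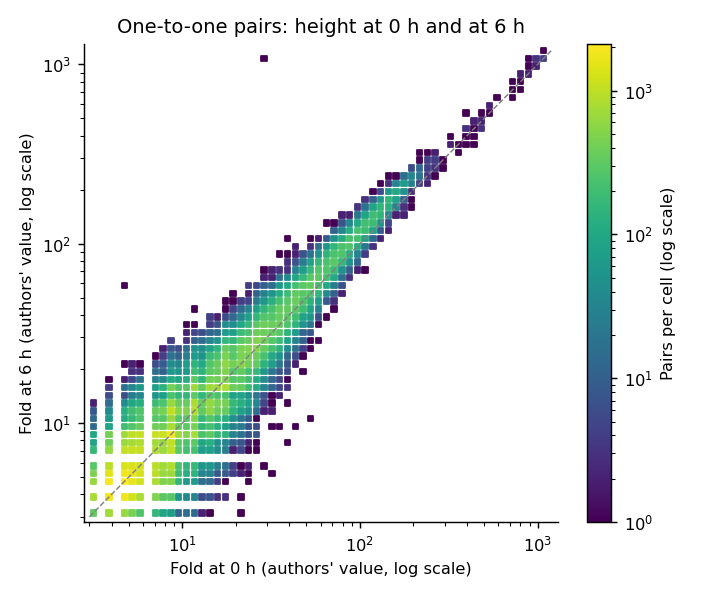
Height at 0 h (x axis, authors' fold, log scale) and at 6 h (y axis, same) of the 128401 one-to-one pairs, with the number of pairs per cell in colour (log scale) and the line of equal folds dashed; white bands at low folds are the even steps of the deposited values. The cloud is wide at folds under 20 and narrow above 100.

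Rank moves were widest among pairs of mean rank 20 to 40. Pairs were ranked by fold from 0 to 100 at each time, and a move of at least 25 points was counted among the 62647 pairs with a mean rank of at least 50. Below that, the 5th to 95th percentile of the move ran from −35.0 to 33.3 points at mean ranks of 20 to 30 and from −36.7 to 34.7 at 30 to 40, at folds near 5 to 7, against −24.0 to 22.2 at 50 to 60. Among pairs with a mean rank of at least 50, 500 stood higher at 6 h by 25 points (0.798%) and 623 lower (0.994%). The median move regardless of direction was 3.67 points in these pairs. Ranks end at 100, so the tallest pairs have little room to move, and their small moves are not read as stability. The 500 had median folds of 7.56 and 17.3, and the 623 had 16.6 and 8.29. Of these moves, 7.8% and 6.1% had the 0 h summit within 1 kb of a gene start, against 9.09% of all pairs of mean rank 50 to 75.

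Among tall pairs the leading moves up lay in Snx18, a membrane-remodelling protein (fold 13.6 at 0 h, 36.2 at 6 h and 67.9 at 72 h), and in Myh9, the heavy chain of non-muscle myosin (14.4, 39.9 and 71.8). Pairs in Traf5 (14.4, 37.7 and 14.1), near Olfr693 (14.4, 37.7 and 21.1) and in Dusp14 (14.4, 37.7 and 31.2) followed. The leading moves down lay near Cep19 (38.6, 13.6 and 13.3), in Enpep (36.3, 14.3 and 18.0), near Cpeb2 (39.3, 15.1 and none), in Septin9 (34.8, 14.3 and 10.1) and near Cd84, a receptor of the SLAM family (37.0, 15.1 and 114). The 72 h values did not follow a single order: in Snx18 and Myh9 they lay beyond the 6 h value, while near Cd84 the region was tallest at 72 h.

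The 72 h ranks of moved pairs can be read where a pair met exactly 1 region of 72 h that met no other pair. For this, all pairs with such a region, of any height, were ranked anew at each time, so these ranks are lower than those among all pairs. In the 434 such pairs that moved up, the median ranks at the 3 times were 27.4, 60.3 and 55.9, and in 61.1% the 72 h rank lay above the midpoint of the first 2. In the 445 that moved down the medians were 61.1, 28.3 and 30.3, and 22.7% lay above the midpoint, against 36.8% of all pairs with a mean rank of at least 50. A region of any kind was listed at 72 h for 91.0% of the pairs that moved up and 72.6% of those that moved down. In both directions the median rank at 72 h was thus nearer to 6 h than to 0 h. The 72 h library also differs in time and treatment length, so it is no replicate of 6 h.

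Moved pairs were scattered among genes. Within 100 kb of a named gene start lay 441 that moved up and 516 that moved down. At least 2 moved up at 12 genes, and at least 2 moved down at 8. Syne1, which encodes the nuclear envelope protein nesprin-1, was among the 12, with 1 pair 24393 bp from a start going from a fold of 9.07 to 24.9 (51.5 at 72 h) and another 8288 bp away going from 7.56 to 16.6 (14.1 at 72 h). Sp3, a GC-box binding factor, and Epha2, an ephrin receptor, were others. Klhl24, a ubiquitin ligase adaptor, was the only gene with 3 in one direction, all down, with folds of 16.6, 18.9 and 18.1 at 0 h and 7.54 for each at 6 h.

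Most genes with a start region had one at both times. A start region was listed for 13591 genes at 0 h and 13499 at 6 h, of which 13119 were the same, and 7660 genes had none at either time. At 0 h alone 472 genes had one, 3.47% of those at 0 h, and at 6 h alone 380, 2.82% of those at 6 h. These were low, with a median fold of 3.78 and 4.52, against 65.0 and 73.9 for genes with a region at both times. A region was listed at 72 h for 52 of the 472 (11.0%) and 76 of the 380.

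The tallest start regions listed at 0 h alone belonged to Angptl6 (fold 125), Slurp1 (69.5), Fam178b (37.0), Hgfac (32.5), Cyp2w1 (25.7), Nog (22.7), Wnt9a (21.9), Mei1 (15.9), Eln (12.9) and Wfdc9 (12.9). In all 10 the summit lay beyond 1 kb of the start, between 1050 bp in Wnt9a and 1397 bp in Angptl6, so of these tall regions only an edge had entered the window. Angptl6 and Nog also had a lower region with its summit inside 1 kb at 0 h (3.78 and 4.54) and none at 6 h, and the other 8 had no summit inside 1 kb at either time. At 6 h alone the tallest were Aldh3b2 (42.2), Ptx4 (33.9), Grin2c (10.5), Tulp1 (10.5) and Ccl28 (9.80), also with the summit beyond 1 kb. The other 5, with the summit inside, were Kif2b, Naip6 and Sirpb1b (9.04 each), and Aldh3b3 and Bin1 (8.29 each). Sirpb1b, a myeloid surface receptor, had its summit 40 bp from the start and a fold of 14.8 at 72 h.

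Among genes with a start region at both times, most moved little in rank by height. The median move regardless of direction was 2.94 points over 13119 genes and the Spearman rho 0.982. Of 6574 genes with a mean rank of at least 50, 9 moved up (0.137%) and 6 moved down (0.0913%) by 25 points. In several of the largest moves, not all of which reached 25 points, the tallest region at one time was a neighbour with only its edge in the window. Actb, β-actin, went from 24.9 to 196 with the 6 h summit 1389 bp from the start, and Tmc8, Pik3ip1, Acbd4, Ccdc88b, Slc4a2, Zbtb7a and Trappc12 likewise had the 6 h summit beyond 1 kb. Iqcn, Agpat1, Rbbp8nl and Elf2 had the 0 h summit beyond it. For Pnck, a kinase gene, the 0 h value of 669 was the 63 bp stack described above.

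Moves were also read with the summit inside 1 kb, a measure added after these values were seen. On it 5 genes moved up and 4 moved down by 25 points, the latter including Pnck, Pelp1 and predicted genes. Of these, Rdm1, Prr12, Abcb8 and Gmfg had a 0 h summit of the tall region 1004 to 1072 bp from the start, just outside the window. Zfp296, a zinc-finger protein, went from a fold of 55.9 to 108 (92.1 at 72 h) with its summit 816 bp from the start at 0 h and 836 bp at 6 h, outside a 500 bp window. Ccn3, a matricellular protein, went from 82.4 to 153 (169 at 72 h) and Ebpl, a relative of a sterol isomerase, from 77.1 to 132 (144 at 72 h). Vim, the intermediate filament vimentin, went from 56.7 to 96.5 (61.7 at 72 h), Iffo1 from 59.0 to 99.5 (99.1) and Lemd2, an inner nuclear membrane protein, from 68.8 to 115 (124).

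In the other direction, Pelp1, a co-regulator of nuclear receptors, went from a fold of 104 to 69.3 and stood at 25.8 at 72 h. Dusp2, a phosphatase of MAP kinases, went from 137 to 99.5 and stood at 36.7 at 72 h. The summit lay 94 bp from the Dusp2 start at both times, and 127 and 144 bp from that of Pelp1. These distances do not give the side of the start. Ldha, lactate dehydrogenase A, went from 101 to 73.8 (85.1 at 72 h), Slmap from 88.4 to 63.3 (108), and Ppif, a mitochondrial cyclophilin, from 110 to 85.9 (90.6). Ago2 (91.5 to 72.3), Snrpf (77.1 to 58.0) and the shared start of Atp5pb and Wdr77 (80.9 to 62.5) followed. The listed folds of Pelp1 and Dusp2 were thus lower again at 72 h, while those of Slmap and Ldha were not.

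The 11 stefin A genes on chromosome 16, which encode inhibitors of cathepsins and are known from maturing neutrophils, were drawn up after the moved pairs had been seen. Of these, 7 had a start region at both times, and all 7 ranked higher at 6 h, by 2.26 to 15.3 points with a median of 7.69. Among all ranked genes 50.2% did. Stfa2l1 was itself one of the moved pairs, so this comparison describes the family and is no support for a shift. The 7 genes also had low 0 h ranks, from 0.964 to 24.5, so all ranked genes do not match them in height. Cstdc4 had a fold of 10.6 at 0 h, 34.7 at 6 h and 35.1 at 72 h. Stfa2l1 had 7.56, 21.1 and 55.4, and Stfa3 6.80, 15.1 and 40.6. Stfa2 had 3.78, 8.29 and 32.8, and Csta3 12.1, 20.3 and 32.0. Cstdc5 had 30.2, 46.0 and 53.9, and Cstdc6 20.4, 25.6 and 19.5. In a bulk library, more cells with an open site and more signal per cell cannot be told apart. The listed folds at 6 h were above those at 0 h throughout, and those at 72 h above those at 6 h in 6 of the 7. These folds were not scaled between lists, and the median fold was higher in the 72 h list. Csta1, Stfa1 and Cstdc3 had no start region at 0 h, 6 h or 72 h, and Csta2 had one at 72 h alone (7.81).

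The cluster holds related genes, and how reads that match several members were placed is not given in the sources used here. Over the 300-base promoters of the 10 members in the RefSeq table, with shifts of up to 20 bases and no gaps, identity ran from 26.9% to 79.7% over 45 pairs, with a median of 31.3% and 1 pair over 70%. Stfa2 and Stfa2l1 were the most alike (236 of 296 bases), and Stfa2 and Stfa3 shared 63.5%. Stfa1, at 65.8% identity to Stfa2l1, had no start region at any time. Without gaps, inserted or deleted bases lower these identities. Whether reads shared between members contributed to the start regions was not tested.

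One-to-one pairs of mean rank at least 50 were also read where a summit lay within 1 kb of a named gene start. Among these the largest move up was that of Lif, a cytokine of the interleukin 6 family. Its pair at chr11:4257215-4257369 went from a fold of 6.05 to 18.8, a move of 43.8 points among pairs, and stood at 123 at 72 h. Bik (6.80, 20.3 and 12.5), a pro-apoptotic protein, Usp54 (6.80, 19.6 and 21.1), Slc22a12 (6.80, 18.1 and 20.3) and Stfa2l1 came next. Among the 37 such pairs that moved up, those at C5ar1, the receptor of complement C5a (9.83 to 25.6), and at Srgn, the granule proteoglycan serglycin (6.80 to 15.1), moved less. These were named for their genes and not for the size of the move. Larger moves lay between, such as those at Insig2 (7.56 to 20.3) and Pld4 (6.80 to 16.6). The largest move down in the same set was at Trmt12 (18.1, 6.78 and 6.25), followed by 5 tied pairs that went from 15.9 to 6.78. Of these, Sycp2 stood at 5.46 at 72 h, Itpr1, a calcium channel of the endoplasmic reticulum, at 7.81 and Prrt2 at 11.7, and no 72 h fold was assigned to Yipf1 and Sptbn4. Of 28 pairs at starts that moved up and met 1 region at 72 h, 23 had a higher fold there than at 0 h. A higher fold at 72 h than at 6 h was found in 11 of them. Of 25 that moved down, 6 stood above 0 h and 13 above 6 h. The pairs were chosen by their 0 h and 6 h folds, so these counts do not show whether a move lasted.

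**Figure D4:**
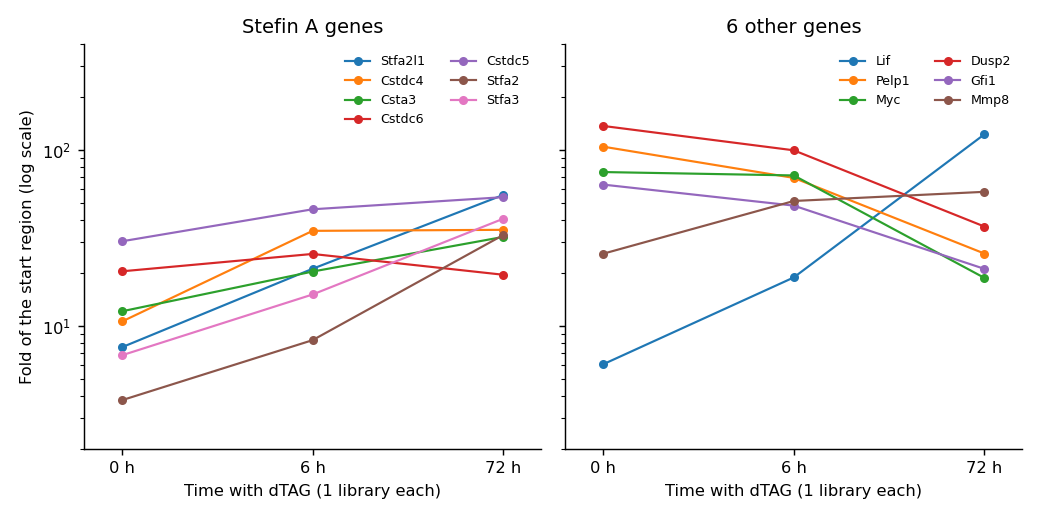
Fold of the tallest start region (y axis, authors' value, log scale) at 0 h, 6 h and 72 h with dTAG (x axis, 1 library each) for the 7 stefin A genes with a region at both first times (left) and 6 other genes (right); lines join the values of 1 gene. All 7 stefin A genes are higher at 6 h than at 0 h, Lif climbs from 6.05 to 123, and Dusp2 and Pelp1 descend from 137 to 36.7 and from 104 to 25.8.

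Gene lists moved little. Over 22 lists with 248 ranked entries, list medians ran from −2.56 points (non-blood tissue) to 3.33 (cohesin ring), beside 0.01 for all 13119 ranked genes, and 2 entries, Actb and Dusp2, moved by 25 points. By the summed fold, a 500 bp window or the summit measure, the median of 8 of the 22 lists took both signs, so no direction is read for those lists. Of the loader, Mau2 had folds of 73.3 and 81.4 (a move of −1.78 points), while Nipbl had no region within 1 kb of either annotated gene end. In the ring, Smc1a had 56.7 and 82.9 (11.7 points), Stag2 57.5 and 73.8 (5.47 points), Stag1 141 and 173 (1.19 points) and Smc3 119 and 139 (−1.23 points). Rad21, like Nipbl, was looked up at either gene end and had no region within 1 kb of these, so a start inside the span would be missed for both. Of 10 cohesin regulators 4 ranked higher, among them Pds5a (62.7 and 83.6) and the release factor Wapl (76.3 and 98.0), and 6 lower, led by the acetyltransferase Esco1 (81.6 and 79.1).

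**Figure D5:**
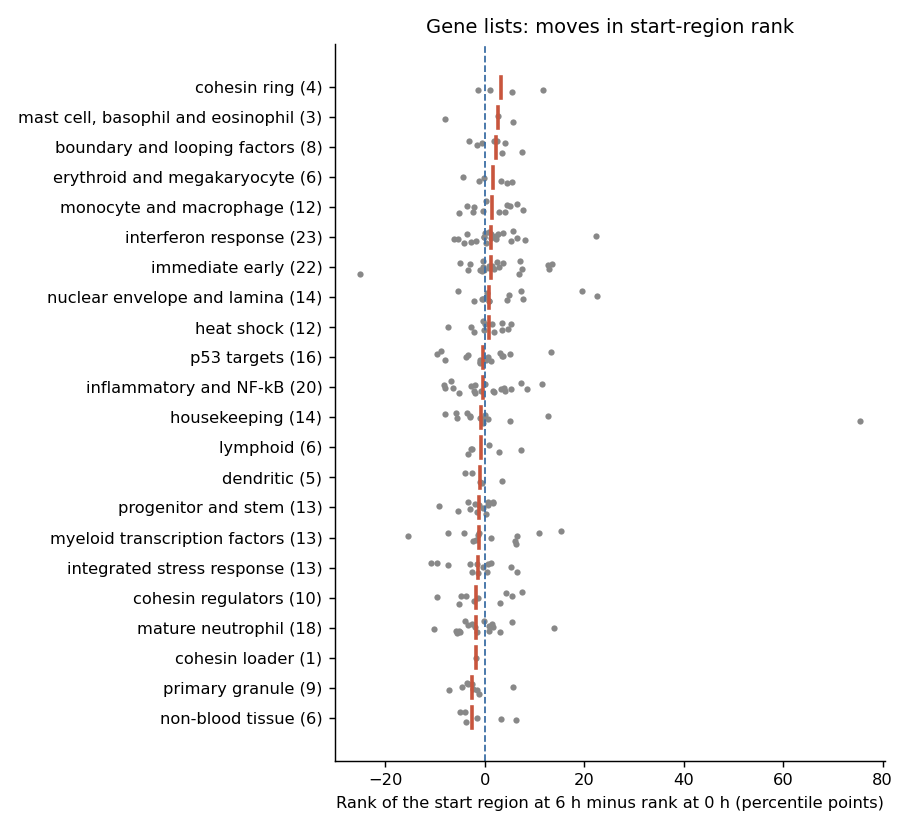
Move in rank of the start region from 0 h to 6 h (x axis, percentile points) for the members of 22 gene lists (y axis, number of ranked members in brackets); points are genes, red bars list medians, and the dashed line the median of all 13119 ranked genes. Every list median lies within 3.33 points of 0, and Actb at 75.4 and Dusp2 at −25.0 stand apart.

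Genes of chromosome folding and the nuclear envelope were mostly within a few points. Of 8 boundary and looping factors 5 ranked higher, led by Ldb1, a looping adaptor (88.4 and 119), and Yy1 (132 and 173), and Ctcf had folds of 85.4 and 94.2 (−3.07 points). Of 14 nuclear envelope and lamina genes 10 ranked higher, beside 50.2% of all ranked genes. Syne1 (44.6 and 85.1, a move of 22.5 points) and Lemd2 (19.5 points) led them, while Lbr, Lmna and Lmnb1, the lamin B receptor and the lamins A/C and B1, moved by less than 1 point. Syne1 stood at 43.7 at 72 h, close to its 0 h value.

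Response genes showed single movers rather than shifts of whole lists. Of 23 interferon response genes 15 ranked higher, led by Irf7, an interferon regulatory factor (46.1 and 86.7, a move of 22.3 points, 76.5 at 72 h), and Ifih1, an RNA sensor (37.8 and 54.3). Of 22 immediate early genes 13 ranked higher, among them Ier3 (96.8 and 148, the latter with its summit 1344 bp from the start and 129 by the summit measure), and Dusp2 moved most. Of 16 p53 targets 8 ranked higher, with Trp53inp1 (88.4 and 133) and Ccng1 (119 and 118) moving most. Of 13 genes of the integrated stress response 8 ranked lower, with Psat1, a serine synthesis enzyme (104 and 99.5), and Herpud1 (128 and 126) moving most. Of 20 inflammatory genes 10 ranked higher, with Rel (59.7 and 86.7) and Tnfaip3 (48.4 and 67.8) ahead. Of 12 heat shock genes 7 ranked higher, Hsp90ab1 (104 and 105) moving most and Hspa1b (49.1 and 63.3) next. Among 14 housekeeping genes with a region, Hprt (60.5 and 89.7) moved most after Actb.

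Blood-cell genes gave small and mixed moves. Of 9 ranked primary granule genes 8 ranked lower, by at most 7.21 points, including the proteases Elane (20.4 and 16.6), Prtn3 (9.07 and 7.54) and Ctsg (19.7 and 14.3). At 72 h these 3 had folds of 6.25, 3.12 and 3.90. Serpinb1a (43.1 and 35.4) moved most, but by the summit measure Serpinb1a and Prss57 ranked higher, by 4.55 and 4.78 points. Cst7 (17.4 and 27.9) was the 1 that ranked higher. Of 18 mature neutrophil genes 7 ranked higher and 11 lower. Mmp8, the neutrophil collagenase, had 25.7, 51.2 and 57.8, and S100a9, a calgranulin, had 34.0, 19.6 and 37.5.

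Among 13 myeloid transcription factors, Gfi1, a transcriptional repressor needed for granulocyte development, had folds of 63.5, 48.2 and 21.1 at the 3 times. Rara, the retinoic acid receptor α, had 44.6, 73.8 and 123. Runx2 had 4.54, 14.3 and 11.7. Of 13 ranked progenitor and stem genes 8 ranked lower, with Myc (74.8 and 71.6) and Lmo2 (36.3 and 30.1) moving most. Myc stood at 18.7 at 72 h. Of 12 monocyte and macrophage genes 7 ranked higher, F13a1 (4.54 and 10.6) and Vcan (9.83 and 18.8) most. The largest moves of the other lists were those of Klf1 (11.3 and 19.6) and Epor (37.0 and 47.5), Ebf1 (22.7 and 36.9) and Gata3 (138 and 152), Mcpt8 (25.7 and 15.1) and Epx (17.4 and 27.9), Siglech (6.80 and 4.52) and H2-Aa (21.2 and 28.6), and Cdh1 (4.54 and 9.04) and Col1a1 (30.2 and 24.1).

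A few list members had a start region at 1 time only, all low. At 0 h alone these included Hoxa7 (3.02) and Hoxa9 (4.54), homeobox genes of progenitors, and the keratin gene Krt14 (3.02). At 6 h alone they were the neutrophil genes Ly6g (8.29) and Padi4 (3.77), Pf4 (8.29), Il5ra (6.03), Meis1 (5.27), Cpa3 (5.27), Nkg7 (3.77), Cd2 (3.77), Cd3g (3.77) and Itgax (3.01). Padi4, which encodes the arginine deiminase of neutrophils, had its 6 h summit 15 bp from the start and a fold of 17.2 at 72 h. Ly6g had 12.5 and Itgax, the integrin CD11c, 10.9 at 72 h. Meis1, Il5ra, Cpa3 and Cd2 had no start region at 72 h. Of 316 list entries, 4 had a start region at 0 h alone and 10 at 6 h alone. Over all 21631 protein-coding genes the counts were 472 and 380, which are 3.47% and 2.82% of the genes with a region at that time. No direction is read from so few entries.

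Promoters with a region at 1 time only were CpG-poor. The median number of CpG sites in 300 bases was 20 for promoters with a region at both times, 6 for those at 0 h alone, 5 for those at 6 h alone and 4 for those with none. The GC box was found in 62.9% of promoters with a region at both times, 36.8% at 0 h alone, 28.4% at 6 h alone and 21.9% with none, beside 46.7% of all 21045. The AP-1 letters were in 51 of 388 promoters at 6 h alone (13.1%, 9.95 to 16.9) and in 29 of 438 at 0 h alone (6.62%, 4.48 to 9.37), beside 9.94% of those with no region and 7.04% of all. RUNX letters were in 20.4% and 13.2% (17.9% with no region, 14.7% of all) and C/EBP letters in 14.7% and 8.68% (13.1% with no region, 10.3% of all). PU.1 letters were in 4.64% and 2.28% (3.15% of all), CCAAT in 38.9% and 36.1% (38.5%), E-box in 6.19% and 7.08% (7.91%), TATA box in 13.4% and 13.9% (12.7%), and the CTCF core in 1.55% and 2.28% (2.37%). The 6 h promoters thus held AP-1, RUNX and C/EBP letters more often than the 0 h ones, with intervals that do not overlap for AP-1 and overlap for the other two. For all 3 motifs the interval at 6 h alone overlapped that of promoters with no region, which was 9.29 to 10.6 for AP-1, 17.02 to 18.74 for RUNX and 12.4 to 13.9 for C/EBP. Promoters with a region at both times held AP-1, RUNX and C/EBP letters in 5.07%, 12.7% and 8.41% of cases, within the intervals at 0 h alone. Thus the 0 h promoters were like those open at both times, and the 6 h ones like those with no region. These shares do not show whether the letters lay inside the listed regions.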

How the data were processed

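ATAC-seq was used to map accessible chromatin in 3 libraries, 1 per time. The submitters' processing notes name BWA 0.7.17, MACS2 2.2.7 and bedtools 2.30.0 with the build mm10. Options and duplicate treatment were not given there, and read totals were not used here. The deposited lists, 1 per library, hold for each peak the authors' fold (a ratio to the caller's background), −log10 p, −log10 q, a browser score and the summit position. A deposited score was not used. The deposited summit offset gave the summit, and start coordinates were raised by 1.

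Regions were matched by at least 1 bp on chromosomes 1 to 19 and X, leaving out 46 and 48 regions of Y at 0 h and 6 h. Ranks were taken within one-to-one pairs, or within genes with a start region at both times. Shares have exact Clopper-Pearson intervals. Python 3.11.15, numpy 2.4.6, pandas 2.3.3, SciPy 1.17.1 and matplotlib 3.10.9 were used. The matching and ranking were tested on simulated lists.

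Named regions are the 5 tallest unmatched in each direction and the 5 pairs of mean rank 75 or more with the largest moves. Named genes are the 10 tallest start regions listed once and the 10 largest rank moves in each direction, with list members listed once or moving most. Longer unmatched regions, the summit measure, pairs at starts and the stefin A genes were added after values were seen. Members and lists were chosen with earlier results of these data known. All 316 list entries matched a RefSeq symbol. The values of 1 list member are not reported here; it stays in the counts.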

Additional observations from a re-analysis of the deposited data

How the results depend on the processing

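The share of 0 h regions with a 6 h region was 75.02% when the overlap had to reach 50% of the shorter region, 73.2% with summits at most 100 bp apart, 84.8% at a −log10 q of at least 5 in both lists and 77.8% in lists of equal size. In the other direction the same settings gave 76.7%, 74.9%, 82.9% and 77.7%. Merging regions within 100 bp first moved neither share beyond its interval. The share of strong regions lost and gained was 0.837% and 1.04% at a −log10 q of at least 10, 0.0429% and 0.0465% in the upper 25% of each list, and 1.76% and 1.14% when no region might lie within 500 bp. It was 2.71% and 1.86% with a 50% overlap, 0.403% and 0.483% in regions of at least 150 bp, and, a setting chosen after seeing the data, 0.222% and 0.248% at a fold of at least 10. The larger of the 2 shares thus changed side with the height and length required. A move of 40 points was reached by 8 pairs upward and 28 downward, and one of 15 points by 2948 and 3025. Ranking by −log10 q or requiring summits within 100 bp left both counts within 1.5 times. Genes with a start region at 0 h alone numbered 121 and at 6 h alone 114 when that region had a −log10 q of at least 5, and 191 and 129 when the other list had to be empty within 5 kb. A 500 bp window, the promoter table alone and the summit measure (the last pair added later) kept both counts within 1.5 times. Genes moved by 25 points numbered 98 with summed folds and 9 with the summit measure, against 15. With the summit measure the moves of Zbtb7a (−43.3), Tmc8 (−11.3), Agpat1 (11.8) and Slc4a2 (−4.21) took the other sign, as did those of Agpat1 (12.1), Slc4a2 (−4.41), Zfp296 (−2.17) and Pnck (2.84) with a 500 bp window. No paired analysis was possible because each time has 1 library, and for the same reason no library could be left out.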
